A study of Mus musculus with 2 samples.

Results

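The promoters of the cytoplasmic ribosomal protein genes were described in 2 DNase-seq libraries of mouse hippocampus. The set was chosen by symbol: autosomal protein-coding genes of GENCODE M21 named Rpl or Rps with digits and at most 1 letter, together with Rplp0, Rplp1, Rplp2 and Rpsa. This gave 76 of 20674 autosomal protein-coding genes, 46 for the large and 30 for the small subunit. The 4 X-linked genes of the family (Rpl10, Rpl36a, Rpl39 and Rps4x) lie outside the rule, as do relatives whose symbols differ, such as Rps3a1 and Rpl22l1.

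Both libraries came from B6CASTF1/J females, offspring of a C57BL/6J and CAST/EiJ cross, aged 14 days, and each label names 3 females. The labels give the source as a layer of hippocampus tissue. They are replicates 1 and 2 of a single group, with separate biosample and shared donor identifiers, so no condition was compared with another. The sources used here do not say whether the replicates are separate animals or pools, and the spread between them may be technical. Reads of both parental alleles were placed on the mm10 assembly, and the alleles were not separated.

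DNase-seq maps DNA that the nuclease DNase I can cut in nuclei. A peak is an interval of dense cutting, and its signal is the authors' measure of that density. A footprint is a short protected run of bases inside cut DNA. The scaling of the signal is not stated and the depth in reads is unknown, so genes were ranked within each library by their strongest peak within 500 bp of any protein-coding transcript start. In tissue, fewer open cells and less cutting per cell cannot be told apart.

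Ribosomal proteins clothe the ribosomal RNA and help it fold, move and bind its factors. Nearly every cell makes them in step, since each ribosome holds mostly single copies of each. Their genes are short, many carry small nucleolar RNAs (snoRNAs, guides for the modification of ribosomal RNA) in their introns, and their mRNAs typically begin with a 5′ terminal oligopyrimidine (TOP) tract that links translation to mTOR signalling. Neurons also translate these mRNAs in axons and dendrites.

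The marker check concerned the tissue as sampled. Promoter peaks were present in both libraries at 7 of 8 hippocampal neuron markers (Slc17a7 lacked one in replicate 2), 3 of 3 astrocyte, 2 of 2 microglial, 2 of 3 oligodendrocyte-lineage and 1 of 2 vessel markers. They were present in both libraries at 0 of 2 choroid plexus markers and 0 of 6 markers of other organs, beside 63.1% of all autosomal protein-coding genes. The glial and vessel peaks were weak, from 0.555 and 0.283 at Pecam1 to 4.98 and 1.96 at Pdgfra in replicates 1 and 2. All lay below the medians of genes with a peak in both libraries (6.29 and 2.70). The choroid plexus marker Kl had a peak of 0.653 in replicate 1 alone, within that range. Neuron markers were split around the same medians. Zbtb20 (1.13 and 1.13), Slc17a7 (1.94 in replicate 1), Prox1 (4.37 and 1.55), Snap25 (4.55 and 2.54) and Camk2a (5.02 and 2.45) lay below them. Neurod2 (6.99 and 3.43), Syt1 (6.53 and 3.32) and Wfs1 (10.9 and 4.72) lay above them. The values below are those of the tissue as sampled, and these peaks do not settle which cell types contribute to them.

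Short groups of sequence show the promoter features that the measurements turn on, each read 5′ to 3′ on the sense strand of the gene from the GRCm38.p6 (mm10) genome of RefSeq. Positions are counted from the principal start, the first base of the best supported protein-coding transcript, which is position 0. Rplp0 (chr5:115559422-115559496, plus strand) and Rps2 (chr17:24720018-24720092, plus strand) are shown with their TATA match in capitals, because these matches lie in footprints of both libraries.
Rplp0: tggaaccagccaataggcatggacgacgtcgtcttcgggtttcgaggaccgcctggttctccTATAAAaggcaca
Rps2: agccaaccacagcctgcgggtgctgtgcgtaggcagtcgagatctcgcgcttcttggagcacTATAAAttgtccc
Rps21 (chr2:180257282-180257367, plus strand), Rpl37 (chr15:5116565-5116635, plus strand) and Rpl15 (chr14:18271117-18271162, minus strand) are shown with the core bound by ETS factors in capitals, for the same reason.
Rps21: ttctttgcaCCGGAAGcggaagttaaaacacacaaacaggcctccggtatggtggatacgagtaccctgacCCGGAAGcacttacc
Rpl37: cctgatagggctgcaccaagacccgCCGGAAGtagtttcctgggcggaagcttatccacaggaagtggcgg
Rpl15: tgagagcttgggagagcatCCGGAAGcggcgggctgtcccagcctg
Rps27 (chr3:90213696-90213741, minus strand) carries a footprinted match to the site of YY1, in capitals.
Rps27: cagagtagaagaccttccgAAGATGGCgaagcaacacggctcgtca
The start regions of Rps12 (chr10:23787255-23787295, minus strand), Rps16 (chr7:28350632-28350672, plus strand) and Rps24 (chr14:24490698-24490738, plus strand) show pyrimidine runs of the TOP kind in capitals, and the principal start is the base after the first 20.
Rps12: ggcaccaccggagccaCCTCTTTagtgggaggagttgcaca
Rps16: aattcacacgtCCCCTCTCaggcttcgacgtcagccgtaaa
Rps24: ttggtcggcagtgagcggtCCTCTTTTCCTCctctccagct

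Almost the whole family was open. A promoter peak was found in both libraries at 73 of 76 genes (96.1%), beside 63.1% of all autosomal protein-coding genes, and the same 73 genes had one in each library. The family also ranked high: 24 of 76 genes (31.6%) were among the strongest 10% of promoters in both libraries, beside 7.14% of all genes. Of these 24, 14 encode large-subunit and 10 small-subunit proteins. Replicate 1 alone placed 27 genes there and replicate 2 placed 32, and Rpl31 (13.4 in replicate 1 and 5.76 in replicate 2) lay on the boundary in replicate 2.

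The median gene of the family stood at percentile 82.8 in replicate 1 and 87.7 in replicate 2, a mean of 85.3 ± 3.43 (SD, n = 2). The median signal of the 73 open genes was 10.5 in replicate 1 and 5.31 in replicate 2. All 13055 genes open in both libraries had medians of 6.29 and 2.70. In replicate 1, 58 of the 73 genes lay above that median, and in replicate 2, 66 did. The family thus spread widely, from signals of 3.46 to 28.7 in replicate 1 and 1.92 to 11.6 in replicate 2. Large-subunit genes (median 10.1 and 5.18, 46 genes) and small-subunit genes (10.2 and 5.68, 30 genes) had similar medians in both libraries.

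**Figure D1:**
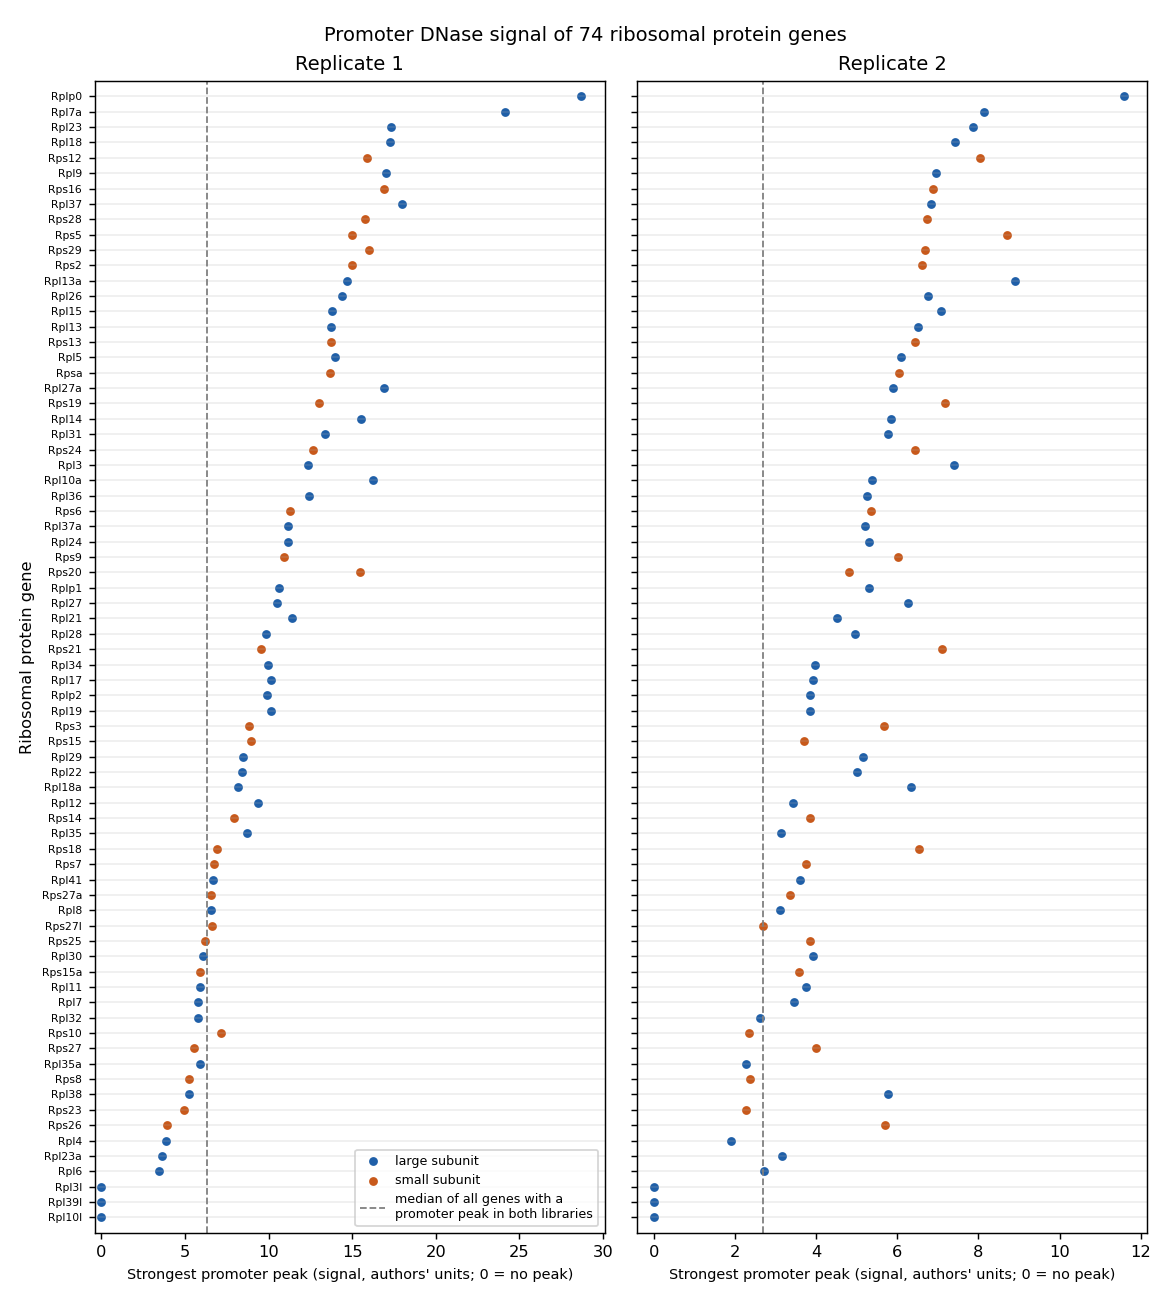
Signal of the strongest promoter peak (authors' units, horizontal axis) of 74 of the 76 ribosomal protein genes in replicate 1 (left) and replicate 2 (right), in the order of the smaller percentile of both libraries, with 1 point per gene. The dashed lines mark the medians of 13055 open genes (6.29 and 2.70), and Rpl3l, Rpl10l and Rpl39l sit at 0 in both libraries.

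The ribosomal stalk, which recruits the elongation factors, held the extreme of the family and more ordinary members. Rplp0, the base of the stalk (chromosome 5, 115559467 to 115563727), had a signal of 28.7 and 11.6 in replicates 1 and 2, the highest of the family in both. Its peak in replicate 1 ran from chr5:115559281-115559520 and covered the start together with the TATA match printed above. Rplp1 had 10.6 and 5.30, and Rplp2 had 9.92 and 3.85, both above the median of open genes. The order was the same in both libraries, with Rplp0 above Rplp1 and Rplp1 above Rplp2.

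Other strong promoters of the large subunit were those of Rpl7a (24.1 and 8.15) and Rpl23 (17.3 and 7.87), whose protein can bind the p53 regulator Mdm2. Rpl9 had 17.0 and 6.96. The windows of Rpl7a and Rpl9 also hold the starts of Med22, a Mediator subunit gene, and Lias, a lipoyl synthase gene. Rpl18 had 17.3 and 7.43, but at a peak inside the gene (chr7:45717941-45718140) beside another of its annotated starts, and Sphk2, a sphingosine kinase gene, also starts in its windows. The Rpl18 peak nearest the principal start (from 45715201) had 14.9 and 6.32.

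In the small subunit strong promoters were those of Rps12 (15.9 and 8.03) and Rps16 (16.9 and 6.87). Their smaller percentiles lay within the highest 8 of the family. Rpsa, whose protein also has a described role as a laminin receptor, had 13.7 and 6.04. Rps19, a gene mutated in Diamond-Blackfan anaemia, had 13.0 and 7.16, and both were among the strongest 10% in both libraries.

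Genes with roles outside the assembled ribosome were not alike. Rpl5 and Rpl11, which with 5S ribosomal RNA form the particle that inhibits Mdm2, differed: Rpl5 had 14.0 and 6.09, and Rpl11 had 5.87 and 3.74. Rpl11 lay below the median of open genes in replicate 1 and above it in replicate 2. Rps6, the substrate of the S6 kinases, had 11.3 and 5.34. Rps3, a protein of the mRNA entry channel that also takes part in DNA repair, had 8.84 and 5.67. Rpl3, near the peptidyl transferase centre, had 12.4 and 7.40. Rps27a, which is made as a fusion with ubiquitin, had 6.56 and 3.37, and its windows also hold the start of Clhc1.

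The weakest open promoters were those of Rpl6 (3.46 and 2.71), Rpl23a (3.61 and 3.15), Rpl4 (3.85 and 1.92), Rps26 (3.92 and 5.69) and Rps23 (4.94 and 2.28). Even these ranked at or above percentile 55.2 in both libraries. All 5 were below the median of open genes in replicate 1, whereas Rpl6, Rpl23a and Rps26 were above it in replicate 2. Rpl4 shares its window with the start of Zwilch.

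The 4 genes whose symbols end in l are paralogs of other members or of an X-linked gene. Rpl3l, known from striated muscle, and Rpl10l and Rpl39l, known from testis, had no promoter peak, no footprint and no base listed with a false discovery rate (FDR) under 0.05 within 500 bp of the principal start in either library. Their start sequences differed in CpG observed over expected: 0.172 for Rpl3l, 0.550 for Rpl39l and 0.722 for Rpl10l, beside a median of 0.821 for the 73 open genes. Rpl39l nonetheless carried an ETS core and a TOP-like start. Rps27l, a paralog of Rps27 known as a p53 target, was open, with 6.60 and 2.70, which is the median of open genes in replicate 2.

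Processed copies of the family provided a view of the same coding sequences away from their promoters. Of 254 autosomal ribosomal protein pseudogenes named with -ps, 247 of them processed, 9 (3.54%) had a peak within 500 bp of their 5′ end in replicate 1 and 8 (3.15%) in replicate 2. Only 5 (1.97%) had one in both. The strongest was Rpl29-ps2 (4.57 and 4.59), whose window also holds the start of a protein-coding gene. The other 4 had signals of 0.198 to 1.79 in replicate 1 and 0.110 to 1.26 in replicate 2, below every open gene of the family. Reads that match a gene and its copies equally well may count for either, by a rule that the sources used here do not give, and their part in these values was not tested.

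The libraries ordered the family in a similar way. Across the 73 open genes, Pearson's r of log2 signal was 0.789 and Spearman's rho 0.783, and across all 13055 open genes they were 0.923 and 0.922. These are descriptions over genes of the same libraries, which are not independent replicates. The median ratio of replicate 1 to replicate 2 was 2.13 for the family and 2.42 for all open genes. Replicate 1 was thus slightly less far above replicate 2 at these promoters than elsewhere, by a difference that was not tested.

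Among the highest ratios were those at Rps20 (15.5 and 4.82, ratio 3.21) and Rps10 (7.18 and 2.35, ratio 3.06). The lowest were at Rps26 (ratio 0.689), Rpl38 (5.24 and 5.77, ratio 0.908) and Rps18 (6.94 and 6.54, ratio 1.06). The windows of Rps10 and Rps18 also hold the starts of RPS10-NUDT3 and Vps52. Rps26 and Rpl38 were the 2 genes of the family with more signal in replicate 2. At Rps26 the strongest peaks of the libraries lay at different sites: chr10:128626361-128626560 in replicate 1, with 3.92, and chr10:128626701-128626920 in replicate 2, with 5.69. At the latter site replicate 1 had a peak of 1.62.

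**Figure D2:**
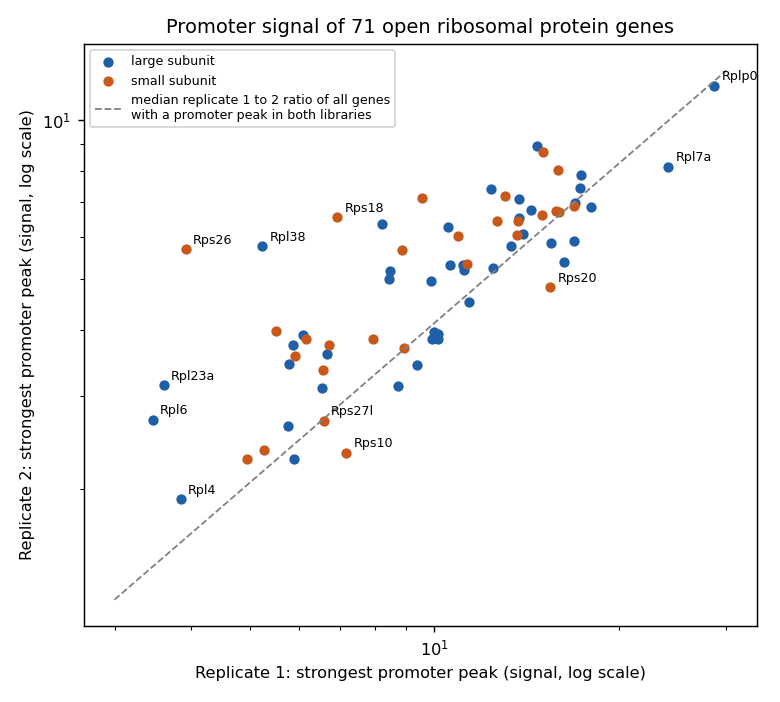
Strongest promoter peak in replicate 1 against replicate 2 (signal, both axes logarithmic) for 71 of the 73 open ribosomal protein genes, with 1 point per gene coloured by subunit. The dashed line is the median ratio of all open genes, 2.42, and Rps26 and Rpl38 lie farthest above it while Rps20 and Rps10 lie below it.

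At 4 genes (Rps26, Rps23, Rpl27a and Rpl4) the strongest peak of replicate 1 overlapped no peak of replicate 2 at all, and the same was true in reverse for Rps23 and Rpl27a. At Rpl27a the peak ended at 109519100 on chromosome 7 in replicate 2 (from 109518941, signal 5.90) and began at 109519101 in replicate 1 (to 109519220, signal 16.9). At Rps23 a peak of replicate 2 (chr13:90922961-90923040, 2.28) filled the gap between a pair of peaks of replicate 1 (to 90922960, 2.61, and from 90923041, 4.94). At Rpl27a and Rps23 these intervals adjoin without overlap. At Rps26 and Rpl4 a weaker peak of replicate 1 overlapped the strongest peak of replicate 2.

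The total length covered by promoter peaks was short beside that of other strong promoters. Promoter peaks of the 73 open genes covered a median of 280 bp in replicate 1 and 260 bp in replicate 2, against 360 and 363 bp for all open genes. Among the strongest 10%, the 24 ribosomal protein genes covered 220 and 260 bp and all 1476 genes 340 and 420 bp. These lengths add up all promoter peaks of a gene. The strongest peak alone differed little, with a median width of 220 bp in both libraries against 240 bp for all open genes. Among the strongest 10% these widths were again 220 and 240 bp. A single promoter peak was found at 49 genes in replicate 1 and 47 in replicate 2, and 24 and 26 had more. Summing the signal over all promoter peaks placed 14 genes of the family, in place of 24, among the strongest 10% in both libraries.

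The other gene lists showed different combinations of rank and length, and all of their genes were open in both libraries. The 78 mitochondrial ribosomal protein genes also had short covered lengths (249 and 240 bp) but ranked lower, at median percentiles of 72.9 and 74.9, with 12 among the strongest 10%. The 22 genes of translation and TOP mRNAs ranked higher, at 92.5 and 93.4, with 12 among the strongest 10% and covered lengths of 320 and 281 bp. By the smaller percentile of both libraries, their strongest promoters were those of Npm1 (19.3 and 8.45), the nucleolar chaperone nucleophosmin, Eif4b (16.4 and 7.32), an initiation factor, and Eef1g (16.0 and 7.79), an elongation factor subunit. The 18 ribosome assembly genes stood at 76.7 and 79.9, with 2 among the strongest 10%. The 30 splicing factor genes named Srsf or Hnrnp stood at 94.4 and 91.3, with covered lengths of 480 and 520 bp. Strength and covered length thus did not go together in the same way across lists.

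**Figure D3:**
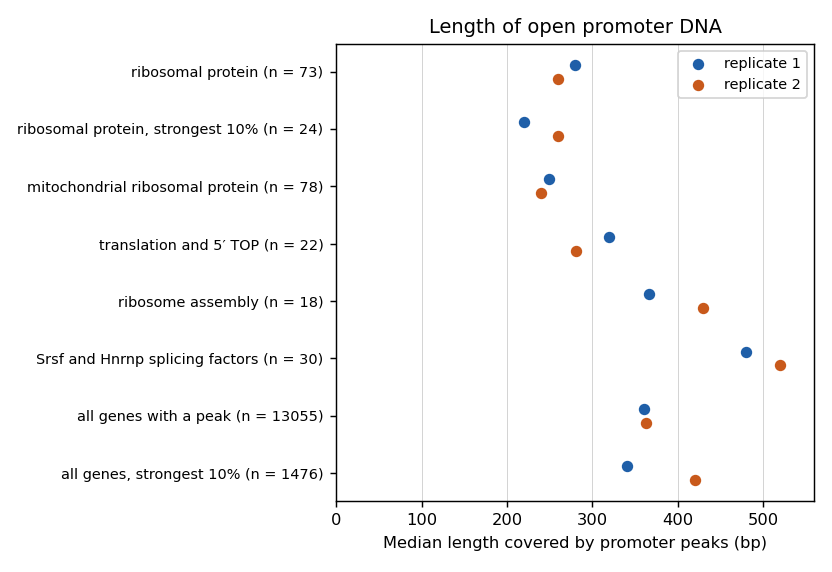
Median length covered by promoter peaks (bp) in replicate 1 and replicate 2 for the ribosomal protein genes, 4 other gene lists and all genes open in both libraries, with the number of genes beside each name. The strongest ribosomal protein promoters (220 and 260 bp) lie below the strongest promoters of all genes (340 and 420 bp) in both libraries.

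Most peaks sat on the start itself. A peak covered the principal start at 62 genes in replicate 1, 61 in replicate 2 and 54 of 76 (71.1%) in both, beside 41.2% of all genes. The latter share includes the genes that were not open. Among genes open in both libraries, the start was covered in both at 54 of 73 in the family and at 8512 of 13055 in all. The centre of the strongest peak was within 100 bp of the principal start at 50 and 53 of the 73 open genes, a count not made over all open genes. Beyond the promoters, 19 genes had 26 peaks in their bodies in replicate 1 and 16 genes had 28 in replicate 2. Body peaks were not counted over all genes, so these numbers have no background. Another protein-coding start lay in the windows of 14 genes, all of them open, whose peaks cannot be assigned to either gene. The same held for 2408 of all 20674 genes and for 2213 of the 13055 open ones. Of the 62 family genes without another start, 59 were open in both libraries. Among the strongest 10% were 18 of the 62, beside 5.80% of all genes without another start in their windows.

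The 27 genes with an annotated snoRNA in their body were all open and stood at median percentiles of 91.7 and 91.4. The 46 open genes without one stood at 82.1 and 87.6. Of the hosts 13, and of the others 11, were among the strongest 10% in both libraries. Of all 20674 genes, the family included, 415 had a snoRNA in their body. Among the 1476 genes in the strongest 10% in both libraries, 65 did. Hosts stood higher in both libraries, by more in replicate 1 than in replicate 2, and the difference was not tested.

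The surroundings of the peaks were read from the bases listed with an FDR under 0.05, which extend beyond the peaks. A median of 850 of these bases in replicate 1 and 829 in replicate 2 lay within 500 bp of the principal start of an open ribosomal protein gene, against 808 and 776 for all open genes. From 150 to 200 bp downstream, 98.6% of bases in replicate 1 and 100% in replicate 2 were listed, against 87.6% and 77.4%. Towards 1000 bp from the start the family fell below the other genes in both libraries, at 3.89% against 10.6% in the outermost 50 bp upstream in replicate 1.

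**Figure D4:**
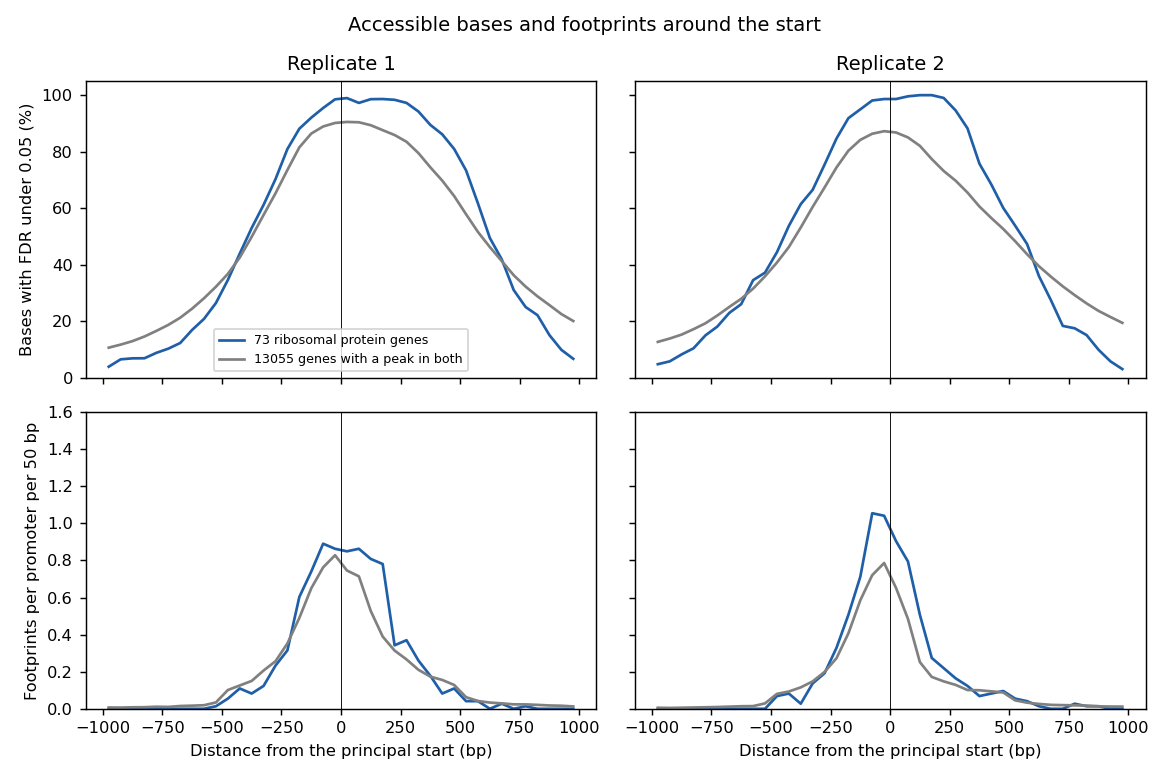
Upper panels give the percentage of bases with an FDR under 0.05, and lower panels the footprints per promoter per 50 bp, against distance from the principal start (bp, negative upstream) in replicate 1 (left) and replicate 2 (right). The lines are 73 open ribosomal protein genes and all 13055 open genes, and from 150 to 200 bp downstream the family reached 98.6% and 100% of bases, above the other genes in both libraries.

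Footprints were about as many at these promoters as elsewhere. The median gene of the 76 had 8 footprints within 500 bp of its starts in replicate 1 and 7 in replicate 2, a mean of 7.50 ± 0.707 (SD, n = 2). The 73 open genes had medians of 9 and 7, all open genes 8 and 6. The 73 promoters held 651 footprints in replicate 1 and 570 in replicate 2, between 3 and 17 per gene in the former and 3 and 15 in the latter. Of these, 365 (56.1%) and 369 (64.7%) overlapped a footprint of the other library, against 47.3% and 63.9% at all open genes. The median footprint of the family was 11 bp long in both libraries.

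Rpl7, a protein of the large subunit, had the most footprints, 17 in replicate 1 and 14 in replicate 2, at a moderate signal of 5.79 and 3.46. Rpl18 had 14 and 15, Rpl5 had 13 and 12, Rps14 had 12 and 13 and Rps19 had 14 and 12. Rpl18 and Rps14 have several annotated starts far apart, which widens the sequence searched. Within 100 bp of the principal start the family had 3.47 and 3.79 footprints per promoter, against 3.05 and 2.64. From 100 to 200 bp downstream it had 1.59 and 0.781, against 0.917 and 0.424, so the family had more footprints on both stretches in both libraries. The base composition differed as well: median footprint GC was 70.0% and 66.7% in the family and 74.1% and 71.4% at all open genes.

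Motifs were searched in the 300 bases from 250 before to 50 after the principal start, on both strands, as exact letters, and a match describes the sequence only. The core CCGGAAG of ETS factors was found at 25 of 76 genes (32.9%), beside 11.4% of all promoters of that length. Among open promoters, 24 of the 73 had it, against 16.6% of all open genes. The mitochondrial ribosomal protein genes held it too, at 29 of 78 (37.2%), as did the ribosome assembly genes, at 7 of 18 (38.9%). Both of these lists thus held the core in a higher share of promoters than the cytoplasmic family.

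ETS matches were footprinted in both libraries about as often here as elsewhere. Of 31 matches in the 73 open promoters, 16 overlapped a footprint in replicate 1, 12 in replicate 2 and 9 (29.0%) in both, against 33.9% of 2643 matches at all open genes. The 9 were at Rps21 (positions -86 and -24), Rpl15 (-76 and 19), Rpl37 (-55), Rpl27a (-121), Rps7 (-14), Rpl11 (6) and Rpl31 (17). Rps21, Rpl37 and Rpl15 are printed above. Of these matches, 6 lie upstream and 3 downstream of the start.

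TATAAA, the TATA box, was found at 8 of 76 genes (10.5%), beside 12.7% of all promoters. Among open promoters it was found at 8 of the 73 (11.0%), against 7.05% of all open genes. Of 9 matches in these 8 promoters, 6 (66.7%) overlapped footprints in both libraries, against 11.4% of 1035 matches at all open genes. These 6 included sense-strand matches at Rplp0 (17), Rps2 (17) and Rps28 (37). Those at Rpl3 (23) and Rps20 (35) were on the antisense strand, so they do not read TATAAA in the direction of the gene. All 6 lay within 10 bases upstream to 50 downstream of the principal start. In that stretch, 29.9% of 117 matches at all open genes were footprinted in both libraries. This share was higher than the one over the whole 300 bases. The stretch was not set in advance, and it leaves out the family's matches that were not footprinted in both libraries. The family's share in it was thus fixed by the choice of stretch and is not compared.

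A TATA box usually stands upstream of the start it serves, and other starts are annotated downstream of several of these matches. Rps2 has further starts at positions 47 and 188, Rplp0 at 70 and 111, and Rps28 at 70, 86 and 216. Rps20 has 1 annotated start, and the other starts of Rpl3 lie far from its match, at -8462 and 2925. The positions at Rps2, Rplp0 and Rps28 therefore depend on which start is taken as the principal one.

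**Figure D5:**
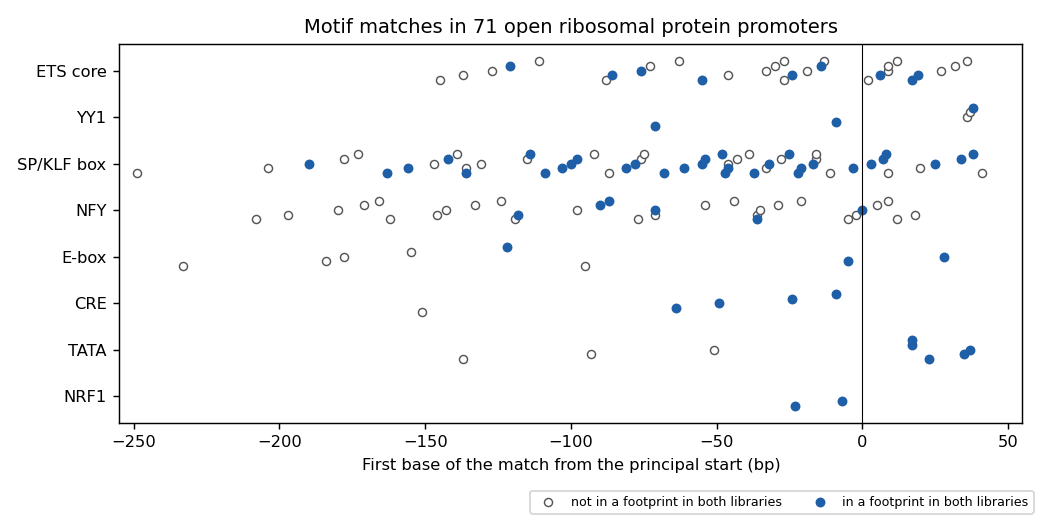
Position of each exact motif match from the principal start (bp, horizontal axis) in 71 of the 73 open ribosomal protein promoters, by motif, with points spread vertically only to separate them. Filled points overlap a footprint in both libraries, as 5 of the 8 TATA matches drawn do, and these 5 lie between 17 and 37. Matches on either strand are drawn.

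The other motifs were split. The YY1 site AAGATGGC was found at 5 genes (6.58%), beside 3.08% of all promoters, and 3 of the 5 matches (Rps27, Rpl18 and Rpl23a) were footprinted in both libraries, against 32.9% of 577 matches at all open genes. The cyclic AMP response element TGACGTCA was found at 5 genes (6.58%), beside 2.48%, and 4 of the 5 matches (Rps29, Rps9, Rpl27a and Rpl13) were footprinted in both, against 82.7% at all open genes. The E-box CACGTG was found at 9 genes (11.8%), beside 7.75%. The site of NRF1 was found at 2 genes (2.63%), Rpl37a and Rpl10a, beside 1.26%, and both were footprinted in both libraries, as were 95.0% of 259 matches at all open genes. Among open promoters the family stood closer to the rest: YY1 6.85% against 4.27% and the cyclic AMP element 6.85% against 3.45%. There the E-box stood at 12.3% against 9.67% and NRF1 at 2.74% against 1.92%. The YY1 site was found at 14.1% of mitochondrial ribosomal protein, 22.7% of translation, 5.56% of ribosome assembly and 3.33% of splicing factor genes.

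A pair of common promoter boxes was no more frequent in the family than among open promoters in general. The SP/KLF box GGGCGG was found at 37 genes (48.7%), beside 46.2% of all promoters, and at 36 of the 73 open ones (49.3%) against 63.5% of all open genes. Its 59 matches there were footprinted in both libraries in 55.9% of cases, against 41.4%. The NFY box CCAAT was found at 23 genes (30.3%), beside 38.2%. Its matches were footprinted in both libraries in 18.8% of cases, against 19.8%. The SP/KLF box can overlap other GC-rich motifs.

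A TOP-like start, taken as a C followed by at least 5 pyrimidines within 10 bases of the start, was found at 26 of 76 genes (34.2%) for the GENCODE principal start, beside 16.0% of all genes. For RefSeq starts it was found at 30 of the 56 genes matched by symbol (53.6%), beside 19.0%. The share thus depends on the annotation of the start, and it was higher in the family with either. Open genes with such a start had median signals of 10.1 and 5.30 (25 genes), and those without one 11.0 and 5.36 (48 genes). Rps12, Rps16 and Rps24, printed above, show the run at or beside the start. The translation list had a TOP-like start at 8 of 22 genes (36.4%) and the splicing factors at 10 of 30 (33.3%).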

How the data were processed

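DNase-seq was measured in 2 libraries of 1 group. Per the deposited file listings, the authors made every file from that library's own alignment to mm10. The sources used here do not name the aligner, the callers or their versions. Each deposited peak list gives a signal per peak, and the longer of each library's 2 lists was used. The deposited FDR files give q-values for runs of bases and list only those under 0.05. The deposited footprints hold a score of 0.01 in every row, so they were counted and not ranked.

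Genes followed GENCODE M21 and bases the GRCm38.p6 genome. Overlap meant at least 1 bp. Computation used Python 3.11.15, pandas 2.3.3, numpy 2.4.6, pysam 0.24.0 and samtools 1.23.1. The overlap functions were tested on simulated data, and the motif search was not. No statistical test was run: there is 1 group, with no condition to compare, and ± is the SD over 2 libraries.

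Members and lists were chosen with earlier results of these data known. Genes were named by rule: the 8 highest and 8 lowest by the smaller percentile, those closed in a library, symbols ending in l, 11 genes by role, the 3 highest and 3 lowest ratios, the 5 with most footprints, and those whose strongest peak overlapped none of the other library. Other genes were named after their values were seen, in the paragraphs on sequences, motifs, the boundary of the strongest 10% and pseudogenes. Values of 2 genes of the family are not reported here, though counts and medians include them. Windows, starts, peak lists, peak numbers, summed signal, footprint filters and single libraries were varied.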

Additional observations from a re-analysis of the deposited data

How the results depend on the processing

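No paired analysis was possible because the series has 1 group. The number of genes open in both libraries was 69 to 73 of 76 under the alternatives for starts, windows of 250 and 1000 bp, the stricter peak list and equal peak numbers. Left to a single library, it was 73 in each (73 to 73), the number among the strongest 10% was 27 to 32, the median percentile 82.8 to 87.7 and the median footprints 7 to 8. With the signal of all promoter peaks summed, 14 genes in place of 24 were among the strongest 10% in both libraries (7.20% of all genes) and the median percentile was 81.6. The cause of this change was not tested. Median footprints were 8.25 in windows of 1000 bp, 5.50 for footprints inside peaks (all open genes 5.50) and 5 for shared footprints (all open genes 4). ETS cores were found at 36 genes within 500 bases either side (19.7% of all genes) and at 22 from the gene's 5′ end (11.0%). Chosen after seeing the data were peaks over the principal start (54 genes open), windows free of other starts (18 among the strongest 10%, of 62 genes) and RefSeq starts (TOP-like share 53.6%). The stretch around the start used for TATA matches was not set in advance either. Unknown depth limits the weak peaks, so a missing peak is one not called, and the spread rests on 2 libraries.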

Other observations

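Some values belong to no comparison above. The genes in this paragraph were chosen after their values were seen. Rpl24 had 10 and 8 footprints at a signal of 11.1 and 5.31, fewer than the 17 and 14 of Rpl7 at 5.79 and 3.46. Rpl32 had 3 and 4 footprints with promoter peaks covering 360 and 740 bp in total, and Rpl35 had 3 and 5. Across the 73 open genes, CpG observed over expected and signal had Spearman's rho of 0.294 in replicate 1 and 0.230 in replicate 2, a description over genes of the same libraries. The family's genes had a median length of 3400 bp, against 17601 bp for all genes.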
